A study of Drosophila melanogaster with 6 samples.

Results

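The genes described here are 10 that encode enzymes adding or removing methyl groups on histones and other proteins, or subunits of the complexes those enzymes work in. They were taken by symbol: E(z), Jarid2, Utx, Cfp1, Dpy-30L1, wds, Mes-4, Hmt4-20, Art1 and Art4. All 10 were among the 3987 genes tested, and they mark no cell type. Messenger RNA was profiled in S2, a blood-like cell line of Drosophila melanogaster established from embryos. There were 3 groups of 2 samples: a control knockdown, a knockdown of NAP-1, a histone chaperone encoded by Nap1, and a knockdown of the histone acetyltransferase CBP, the product of nej. All were grown in the same serum-supplemented medium. The labels name neither the target of the control knockdown nor the reagents. Nor do they state whether the samples of a group were separate cultures: the p-values therefore refer to the spread between these samples alone, and that spread may be technical.

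Methyl marks are written on the tails of histones by lysine and arginine methyltransferases that draw the methyl group from S-adenosylmethionine, and are erased by demethylases. Polycomb repressive complexes deposit one such mark on silenced genes, and the Trithorax-related COMPASS complexes deposit another on active promoters and enhancers. E(z) is the methyltransferase of the Polycomb complex, Jarid2 one of its accessory subunits, and Utx the demethylase that removes its mark. Cfp1, Dpy-30L1 and wds belong to COMPASS-type complexes. Mes-4 and Hmt4-20 are lysine methyltransferases of the histone H3 and histone H4 tails. Art1 and Art4 are protein arginine methyltransferases.

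Each sample had between 4162019 and 5362319 alignments. Nap1 measured 220 and 243 RPKM (reads per kilobase of feature, scaled to library size) across the controls, against 20.6 and 26.5 RPKM in NAP-1-depleted cells (log2 fold change -3.25, limma, adjusted p = 0.0296). Leaving out any 1 of the 6 libraries gave -3.43 to -3.08, with an adjusted p of 0.0817 to 0.431 over all genes. In CBP-depleted cells Nap1 measured 325 and 365 RPKM, above both controls but not called (log2 fold change 0.57, limma, adjusted p = 0.148). The transcript of nej measured 3.25 and 2.47 RPKM across the controls, 1.26 and 2.41 RPKM in NAP-1-depleted cells, and 0.899 and 0.363 RPKM in CBP-depleted cells. Of 12 blood cell markers sought, 8 had a listed feature. Among the listed features of these 8, the collagen genes Cg25C and vkg were abundant, at 41.9 to 122 and 25.2 to 63.9 RPKM. The defining blood cell genes srp, Hml, He and NimC1 stayed at or below 0.348 RPKM in every sample, and Hml and NimC1 were listed at 0 in both CBP knockdown samples. Genes may be missing or listed in part, so neither absence nor near-absence of a marker can be read from such values. The marker ush measured 3.69 and 3.23 RPKM across the controls, 1.70 and 3.34 RPKM in NAP-1-depleted and 0.288 and 0.158 RPKM in CBP-depleted cells. The marker cher lay at 0.291 to 1.56 RPKM. The summed level of the 8 markers was 156 and 172 RPKM for the controls, 130 and 182 RPKM for NAP-1-depleted and 85.2 and 67.5 RPKM for CBP-depleted cells. Nearly all of that sum came from Cg25C and vkg. The 6 listed markers of neuron, muscle, germ line and fat body summed to 3.3 and 1.11 RPKM for the controls. Their sum was 0.441 and 1.67 RPKM for NAP-1-depleted and 0.49 and 0.268 RPKM for CBP-depleted cells. Most of it came from elav in every sample. Both marker sums were thus lower in both CBP knockdown samples than in both controls. The part of these shifts in the results below was not tested. In such bulk samples, less RNA of a gene per cell and fewer cells holding it cannot be told apart.

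The 10 genes had 15 listed features, of which 13 held distinct values. The 11 with a mean of at least 1 RPKM were summed per gene. For Art4, wds and Mes-4, 1 feature each was listed, whereas RefSeq names 2 mRNAs for each. Their values may therefore leave out part of the gene. In the controls the genes formed a high and a low tier. Dpy-30L1, Art1 and wds had mean levels of 24.7, 20.5 and 19.5 RPKM, and their ranges overlapped. Below a gap came Hmt4-20, Art4, Utx, E(z), Mes-4, Cfp1 and Jarid2, with means of 7.41, 6.37, 5.35, 5.04, 4.83, 3.65 and 3.31 RPKM. Each neighbour in that lower tier overlapped the next except Mes-4 and Cfp1. The median control level of all genes tested was 5.73 RPKM, so the lower tier lay near the middle of the tested genes. After CBP knockdown the order changed: Art4, Jarid2 and Utx came last, with mean levels of 0.137, 0.0968 and 0.0605 RPKM, while Cfp1 stood at 5.22 RPKM, close to Art1 at 5.54 RPKM.

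**Figure D1:**
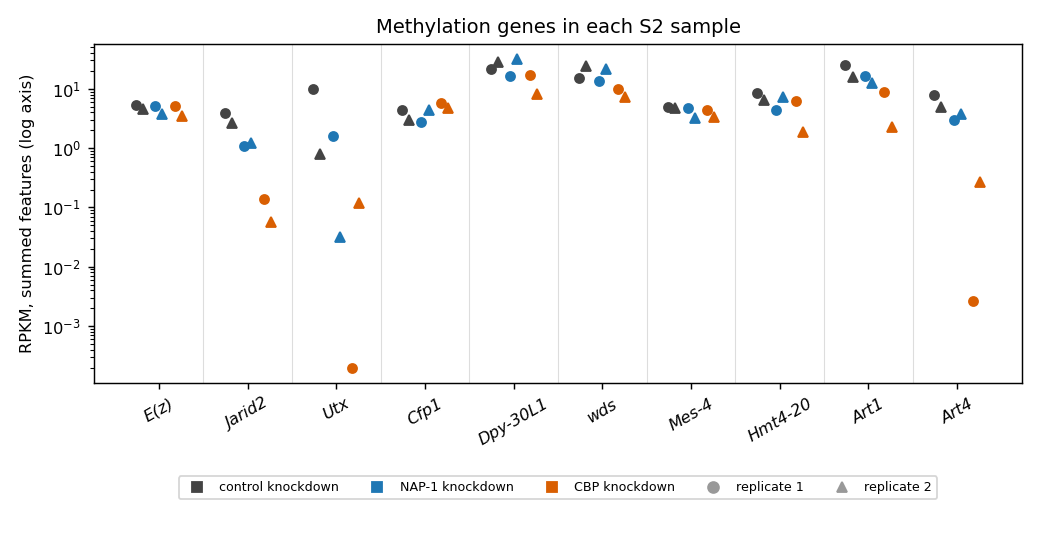
RPKM of each of the 10 methylation genes (horizontal axis) in every sample, on a log axis; colour gives the group and marker shape the replicate. For Jarid2 and Art4 both CBP knockdown samples lie below the other 4 samples of the same gene, the Utx values spread widely within each group, and E(z), Cfp1 and Mes-4 stay between 2.75 and 5.75 RPKM in every sample.

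CBP knockdown was first set against control. Of the 10 genes, 3 were lower and 0 higher: Art4, Jarid2 and Art1 (limma on log2(RPKM + 1), Benjamini-Hochberg adjusted p under 0.05 over all genes). Over all 3987 genes 25.9% were called, 17.4% lower and 8.5% higher. That split was 693 lower to 339 higher, and became 639 to 494 with median-of-ratios scaling and 413 to 371 with quantile normalization; each of these still called the 3 genes lower. At an unadjusted p under 0.05 stood 5 of the 10, against 43.8% of all genes. The median log2 fold change of the 10 was -1.03, against -0.15 over all genes, and 9 of the 10 folds were below 0, against 55.5% of all genes. With the trend on transcript length removed, as described below, the median was -0.72, against 0.0821 over all genes. The 10 were chosen with earlier results of these data known. Contrasts of their medians with all genes, here and below, are therefore descriptions and no test. In 8 of the 10 both CBP knockdown samples lay below both controls, and in 1, Cfp1, both lay above. Among all genes 42.4% lay below and 33.7% above in this way. The 3 calls were not held by every library: when either control replicate 1 or CBP knockdown replicate 2 was left out, 0 of the 10 genes were called, as were 0% of all genes. Art4 then had an adjusted p of 0.128 and 0.113, within a range of 0.0145 to 0.128 over all alternatives.

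The arginine methyltransferases Art4 and Art1 were both lower. Art4 encodes the fly counterpart of mammalian CARM1, which is known there as a coactivator of transcription. Its listed feature measured 7.82 and 4.91 RPKM across the controls, 2.96 and 3.83 RPKM in NAP-1-depleted cells, and 0.00261 and 0.271 RPKM in CBP-depleted cells. The 3 groups did not overlap, with CBP knockdown lowest. Its log2 fold change in CBP knockdown was -2.68 ± 0.35 (SE; limma, adjusted p = 0.0145), and 2.31% of genes had a lower fold. That scale understates changes of low values, and with a pseudocount of 0.1 the fold was -5.01. At the transcript's length, 1 alignment is worth about 0.0657 RPKM in CBP knockdown replicate 1, so the value there lies under 1 alignment. The values in the controls correspond to about 109 and 73.5 alignments. These equivalents assume that the deposited number of alignments is the total behind RPKM. With 1 feature listed for 2 RefSeq mRNAs of Art4, a change of the whole gene cannot be read from these values.

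Art1 encodes the counterpart of mammalian PRMT1, which makes most of the asymmetric dimethylarginine of mammalian cells. Its transcript measured 25.1 and 16 RPKM across the controls, 16.3 and 12.5 RPKM in NAP-1-depleted cells, and 8.79 and 2.29 RPKM in CBP-depleted cells. NAP-1 knockdown overlapped the controls, and both CBP knockdown samples lay below all others. The fall in CBP knockdown was -1.89 ± 0.52 (SE; limma, adjusted p = 0.041). This call was the least stable of the 3. It was lost without any one of control replicates 1 and 2, NAP-1 knockdown replicates 1 and 2 or CBP knockdown replicate 2 (adjusted p = 0.2, 0.0933, 0.0558, 0.0536 and 0.18). Without CBP knockdown replicate 2 the fold was -1.11. It was also lost with a pseudocount of 0.1 and with 4 samples in the fit (adjusted p = 0.056 and 0.0533). Over all alternatives the adjusted p ran from 0.0234 to 0.2.

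Of the genes around the Polycomb mark, Jarid2 was lower and E(z) was not called. Jarid2 encodes a protein with a demethylase-like domain that has no known demethylase activity and that helps to recruit the Polycomb methyltransferase. Its transcript measured 3.97 and 2.65 RPKM across the controls, 1.08 and 1.23 RPKM in NAP-1-depleted cells, and 0.136 and 0.0573 RPKM in CBP-depleted cells. The groups did not overlap, and NAP-1 knockdown lay between control and CBP knockdown. In CBP knockdown the log2 fold change was -1.96 ± 0.33 (SE; limma, adjusted p = 0.0167). With a pseudocount of 0.1 the fold was -4.12. The CBP knockdown values correspond to about 6.08 and 2.6 alignments, against 163 and 116 in the controls.

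E(z), the catalytic subunit, varied little. Its transcript measured 5.43 and 4.64 RPKM across the controls, 5.04 and 3.77 RPKM in NAP-1-depleted cells, and 5.06 and 3.42 RPKM in CBP-depleted cells. The 3 groups overlapped. Its log2 fold change in CBP knockdown was -0.22, with a 95% interval from -0.95 to 0.52 (limma, adjusted p = 0.618). It ran from -0.45 to 0.0091 with 1 library left out. A fall of more than 0.95 on this scale lies outside the interval, but smaller falls, or a rise of up to 0.52, are not excluded. The table lists E(z) as 2 RefSeq mRNAs with identical values and 1 symbol-only feature, which held 2.57% of the RefSeq value in each of the 6 samples. A whole-gene total cannot be read from such features.

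Utx, the demethylase of the same mark, was unsteady within groups. Its summed feature measured 9.92 and 0.791 RPKM across the controls, 1.57 and 0.0322 RPKM in NAP-1-depleted cells, and 0.000196 and 0.121 RPKM in CBP-depleted cells. The controls differed 12.5-fold from each other, and NAP-1 knockdown overlapped both them and CBP knockdown. Both CBP knockdown samples lay below both controls. The log2 fold change in CBP knockdown was -2.06 ± 0.85 (SE; limma, adjusted p = 0.108). Without control replicate 2, the lower control, the fold was -3.37 (adjusted p = 0.043), and without control replicate 1 it was -0.76. Over all alternatives the adjusted p ran from 0.043 to 0.414. The table lists 2 Utx mRNAs, whereas RefSeq release 6 names 5, so these values are those of 1 mRNA and the whole gene was not analysed here.

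None of the 3 COMPASS-type subunits was called in CBP knockdown. Dpy-30L1, the fly DPY30 and a core subunit of these complexes, measured 21.3 and 28.1 RPKM across the controls, 16.2 and 31.3 RPKM in NAP-1-depleted cells, and 16.9 and 8.31 RPKM in CBP-depleted cells. Its log2 fold change in CBP knockdown was -0.98 ± 0.44 (SE; limma, adjusted p = 0.129), and -0.51 without CBP knockdown replicate 2. The gene wds, which encodes the WD-repeat scaffold known in mammals as WDR5, measured 15 and 23.9 RPKM across the controls, 13.3 and 21.9 RPKM in NAP-1-depleted cells, and 9.91 and 7.26 RPKM in CBP-depleted cells. Its fold was -1.07 ± 0.36 (SE; limma, adjusted p = 0.0666). For both genes the CBP knockdown samples lay below the controls, and the NAP-1 knockdown samples overlapped the controls. Replicate 2 was the higher sample of each control and NAP-1 knockdown pair for both genes, and replicate 1 the higher of the CBP knockdown pair.

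The adjusted p for wds came just under 0.05 with 4 samples in the fit (0.0476) and without NAP-1 knockdown replicate 1 or 2 (0.0498 and 0.0485), and ran up to 0.313 over the alternatives. Cfp1, which encodes the CXXC-domain subunit of the Set1 complex, was the 1 gene whose CBP knockdown samples both lay above the controls. Its transcript measured 4.33 and 2.97 RPKM across the controls, 2.75 and 4.36 RPKM in NAP-1-depleted cells, and 5.75 and 4.69 RPKM in CBP-depleted cells. The log2 fold change was 0.43 with a 95% interval from -0.35 to 1.21 (limma, adjusted p = 0.345), and 0.22 to 0.64 with 1 library left out. The 2 listed features of Cfp1 held identical values and were counted once.

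**Figure D2:**
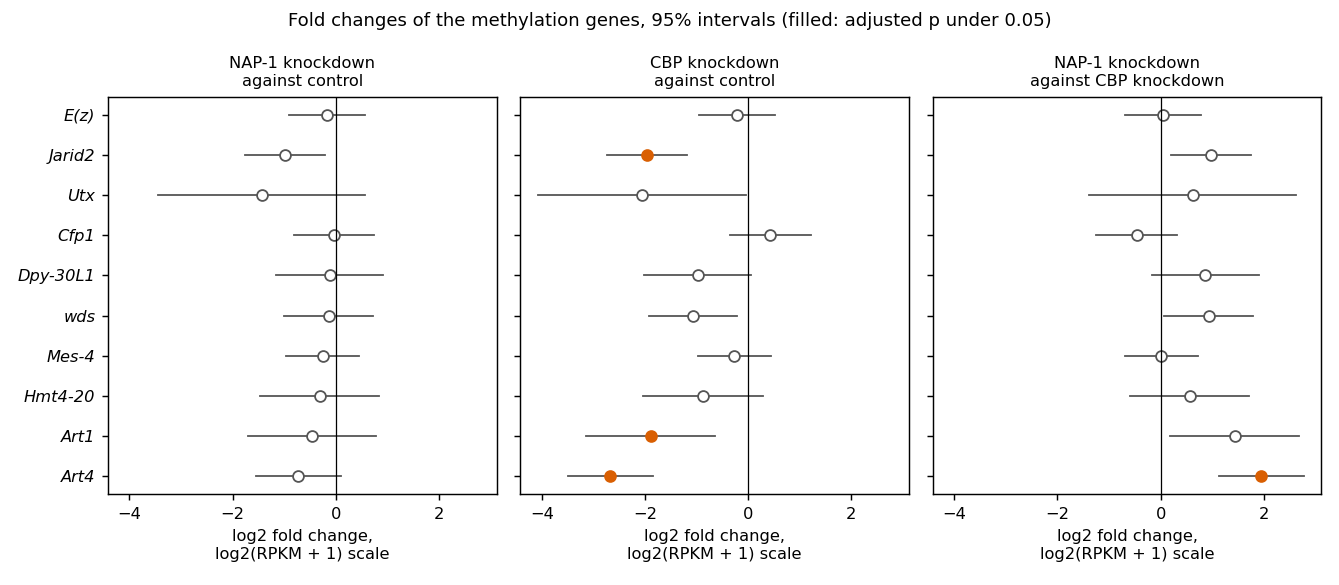
Log2 fold change of each gene on the log2(RPKM + 1) scale (horizontal axis) in the 3 comparisons; lines are 95% intervals and filled points have an adjusted p under 0.05. Art4, Jarid2 and Art1 are filled in CBP knockdown against control, Art4 in NAP-1 against CBP knockdown, and no gene in NAP-1 knockdown against control.

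The lysine methyltransferases Mes-4 and Hmt4-20 were not called either. Mes-4, now named NSD, encodes a methyltransferase of histone H3 found over transcribed genes. Its transcript measured 4.99 and 4.67 RPKM across the controls, 4.66 and 3.22 RPKM in NAP-1-depleted cells, and 4.32 and 3.40 RPKM in CBP-depleted cells. Both knockdowns lay below the controls, although NAP-1 knockdown replicate 1 was almost level with the lower control. In CBP knockdown its log2 fold change was -0.27 with a 95% interval from -0.98 to 0.44 (limma, adjusted p = 0.523), and it ran from -0.41 to -0.13 with 1 library left out.

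Hmt4-20 encodes the enzyme that adds further methyl groups to a lysine of histone H4 that already carries one, a mark of heterochromatin. Its 2 summed features gave 8.41 and 6.42 RPKM across the controls, 4.41 and 7.39 RPKM in NAP-1-depleted cells, and 6.27 and 1.85 RPKM in CBP-depleted cells. The CBP knockdown samples lay below the controls, although replicate 1 came close to the lower control. The log2 fold change in CBP knockdown was -0.88 ± 0.49 (SE; limma, adjusted p = 0.207). It was -1.55 without CBP knockdown replicate 1 and -0.20 without CBP knockdown replicate 2.

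The 2 features of Hmt4-20 did not move alike, an observation chosen after the values were seen and not tested. The symbol-only feature measured 6.06 and 5.58 RPKM across the controls, 3.25 and 5.21 RPKM in NAP-1-depleted cells, and 2.71 and 0.726 RPKM in CBP-depleted cells. The RefSeq mRNA feature stood at 2.35 and 0.837 RPKM, at 1.16 and 2.19 RPKM and at 3.56 and 1.13 RPKM in the same order. The RefSeq feature therefore made up 27.9% and 13% of the sum in the controls, 26.3% and 29.6% in NAP-1-depleted cells, and 56.8% and 60.8% in CBP-depleted cells. Its share was higher in both CBP knockdown samples than in the other 4. With the higher feature alone, the log2 fold change of Hmt4-20 in CBP knockdown was -1.43 (limma, adjusted p = 0.0581), within a range of 0.0568 to 0.777 over the alternatives.

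**Figure D3:**
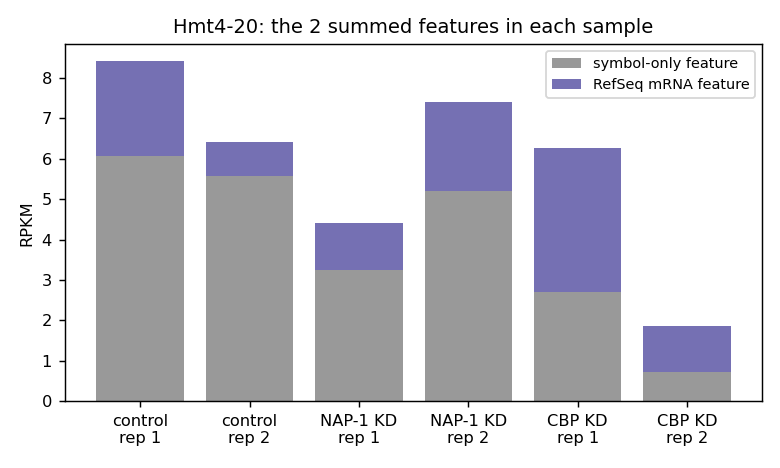
RPKM of the 2 features summed for Hmt4-20 (stacked bars, vertical axis) in each of the 6 samples. The RefSeq mRNA feature is the larger part in both CBP knockdown samples, 56.8% and 60.8%, and the smaller part in the other samples.

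Fold changes in CBP knockdown moved with transcript length, and the 10 genes span that range. Of the genes tested, 4.17% were called lower in the shortest of 5 length bins and 40.3% in the longest, with median log2 fold changes of 0.29 and -1.07. Jarid2, Utx, Mes-4 and Hmt4-20 lay in the longest bin, and 1 of these 4 was called lower. E(z), Cfp1 and Art4 lay in the next bin, where 22.1% of genes were called lower and the median was -0.44. Art1 and wds lay in the middle bin, where 12.4% were called lower and the median was 0.02, and Dpy-30L1 lay in the shortest bin. Art1, at 1528 nt, Dpy-30L1, at 655 nt, wds, Art4, Jarid2 and Utx stood below the medians of their bins. Mes-4, at 4583 nt, E(z), Cfp1 and Hmt4-20 stood above theirs.

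With a loess trend on length removed, Art4 and Art1 kept their calls, at -2.0 and -1.81 (limma, adjusted p = 0.0215 and 0.0423), against 9.66% of all genes called lower. Jarid2, the longest at 8463 nt, did not (-0.52, adjusted p = 0.229, within a range of 0.0167 to 0.229 over the alternatives). In the same fit E(z), Mes-4 and Hmt4-20 turned to positive folds of 0.31, 0.84 and 0.38, none of them called (adjusted p = 0.39, 0.0856 and 0.431). The fold of nej also turned, to 0.23 (adjusted p = 0.556, within a range of 0.0407 to 0.556), from -1.26 ± 0.37 (SE; limma, adjusted p = 0.0466). The nej call was also lost without any one of control replicates 1 and 2 and CBP knockdown replicates 1 and 2 (adjusted p = 0.209, 0.122, 0.068 and 0.228).

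**Figure D4:**
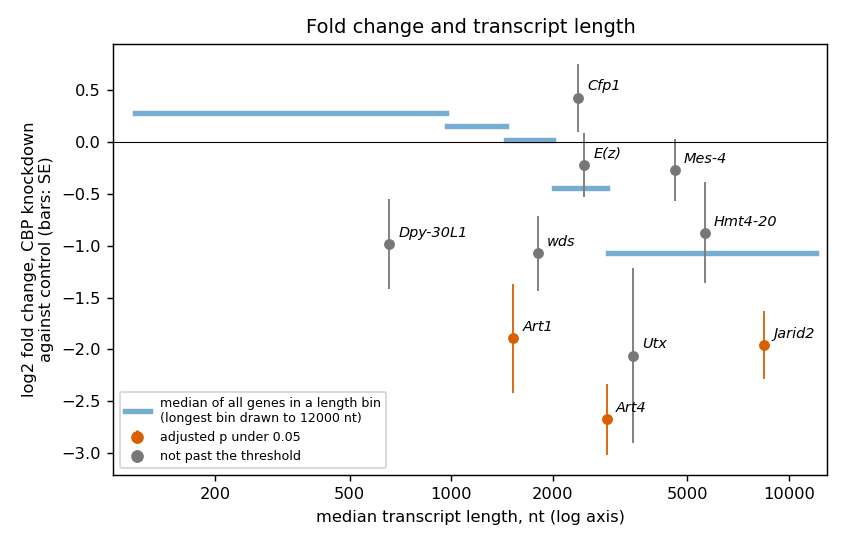
Log2 fold change in CBP knockdown against control (vertical axis, bars are SE) against median transcript length on a log axis; horizontal lines are the medians of all genes in 5 length bins, from 0.29 in the shortest to -1.07 in the longest. Art1 and Art4 lie far below the line of their bin, and Jarid2 lies in the bin whose line is lowest.

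NAP-1 knockdown was then set against control. None of the 10 genes was called (limma, 0 of 10), against 0.0251% of all genes, a single gene, Nap1 itself. At an unadjusted p under 0.05 stood 1 of the 10, Jarid2, against 3.51% of all genes. All 10 log2 fold changes were below 0, with a median of -0.28, while 63.7% of all genes were below 0 and their median was -0.13. With median-of-ratios scaling Cfp1 was above 0, with quantile normalization Cfp1 and E(z) were, and with the length trend removed E(z), Cfp1, Mes-4 and Hmt4-20 were. In 3 genes, Jarid2, Art4 and Mes-4, both NAP-1 knockdown samples lay below both controls, as in 26.2% of all genes, and in 0 both lay above, against 8.1% of all genes.

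Jarid2 had a log2 fold change of -0.99 ± 0.33 after NAP-1 knockdown (SE; unadjusted p = 0.0202 and adjusted p = 0.978 by limma), and 3.69% of genes had a lower fold. Art4 had -0.72 ± 0.35 (SE; limma, adjusted p = 0.978). For Utx the fold was -1.44 with a 95% interval from -3.45 to 0.57. The intervals for E(z) and Cfp1 ran from -0.90 to 0.57 and from -0.82 to 0.74. Those for Dpy-30L1, wds and Mes-4 ran from -1.15 to 0.92, from -1.0 to 0.72 and from -0.97 to 0.46. The intervals for Hmt4-20 and Art1 were wider, from -1.47 to 0.85 and from -1.71 to 0.78. Changes within these intervals are not excluded. The bounds are not limits of detection: Jarid2 was not called although its interval, from -1.76 to -0.21, left out 0.

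The knockdowns were also set against each other. Art4 was higher after NAP-1 than after CBP knockdown, by 1.95 ± 0.35 on the log2 scale (SE; limma, adjusted p = 0.0455), and was the 1 gene of the 10 called in this comparison. Of all genes, 3.09% were called, 1.43% higher and 1.66% lower. The call for Art4 was lost under several alternatives. Without any one of control replicates 1 and 2, NAP-1 knockdown replicate 2 and CBP knockdown replicates 1 and 2, the adjusted p was 0.099, 0.0977, 0.171, 0.0699 and 0.264, and with the replicate block it was 0.0769. Art1, Jarid2 and wds also had NAP-1 knockdown samples that both lay above both CBP knockdown samples, as did 32.8% of all genes, with folds of 1.43, 0.97 and 0.93 (limma, adjusted p = 0.123, 0.107 and 0.136). Cfp1 had the reverse order, as did 29.8% of all genes, and a fold of -0.47 (adjusted p = 0.346). E(z) and Mes-4 had folds of 0.05 and 0.01, with intervals from -0.68 to 0.79 and from -0.70 to 0.72. The fold of Dpy-30L1 was 0.87, that of Utx 0.62 and that of Hmt4-20 0.57, none of them called (limma, adjusted p = 0.211, 0.628 and 0.441).

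A wider list of methylation genes was read beside these. Of its 64 symbols, older names included, 29 had a listed feature and 15 were tested. A symbol with no listed feature cannot be read as not expressed, because genes may be missing from the deposited features. In CBP knockdown 5 of the 15 were lower and 2 higher, against 17.4% and 8.5% of all genes. The minimum of 1 RPKM is a mean over all 6 samples, so genes low in CBP knockdown could pass it through the other samples. With no minimum for these genes, 7 of the 29 were lower and 2 higher. That made 9 called, against 25.8% of all genes, and the median log2 fold change of the 29 was -0.90. The median log2 fold change of the 15 was -1.19, against -0.15 over all genes. It was -0.49 against 0.12 with quantile normalization, and -0.22 against 0.0821 with the length trend removed. This list, too, was chosen with earlier results of these data known, so these contrasts are descriptions and no test. In NAP-1 knockdown 0 of 15 were called, against 0.0251% of all genes (limma; 0 also at an unadjusted p under 0.05). Without control replicate 1 or CBP knockdown replicate 2, 0 of the 15 were called in CBP knockdown, and without control replicate 2 there was 1.

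Genes of Polycomb proteins made up 3 of the 5 lower ones. The gene of another, Sfmbt, was tested and not called (-1.58, limma, adjusted p = 0.073). Pcl, an accessory subunit of the E(z) complex, measured 4.81 and 2.11 RPKM across the controls, 1.27 and 1.30 RPKM in NAP-1-depleted cells, and 0.000919 and 0.0795 RPKM in CBP-depleted cells. In CBP knockdown its fold was -2.03 ± 0.39 (SE; limma, adjusted p = 0.0189). Caf1, which encodes a histone-binding subunit shared by this complex and several assembly and remodelling complexes, fell from 20.2 and 21 RPKM to 8.98 and 5.78 RPKM, a fold of -1.39 (limma, adjusted p = 0.0212). Scm, a Polycomb-group protein gene, fell from 7.55 and 8.0 RPKM to 2.53 and 0.475 RPKM, a fold of -1.94 (limma, adjusted p = 0.0272). Only a RefSeq mRNA feature was listed for Pcl and for Scm, so these values may leave out part of each gene. Like Jarid2, Pcl and Scm lost their calls with the length trend removed (-1.01 and -0.97, adjusted p = 0.0917 and 0.087), and Caf1 kept its own (-1.24, adjusted p = 0.025). Over the alternatives the adjusted p of Pcl, Caf1 and Scm ran up to 0.128, 0.139 and 0.143.

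Genes of histone demethylases were the other 2 lower ones. A further demethylase gene, Kdm4B, was tested and not called (-0.23, limma, adjusted p = 0.782). The Lsd1 gene Su(var)3-3 fell from 1.91 and 1.75 RPKM to 0.263 and 0.141 RPKM, a fold of -1.24 (limma, adjusted p = 0.0332). The gene lid, which encodes the demethylase of the COMPASS mark, fell from 2.82 and 1.88 RPKM to 0.223 and 0.132 RPKM, a fold of -1.50 (limma, adjusted p = 0.027). For Su(var)3-3 only a RefSeq mRNA feature was listed, and for lid only its highest mRNA feature reached the minimum. The values of both may therefore leave out part of the gene. With the length trend removed neither was called (-0.33 and -0.21, adjusted p = 0.417 and 0.609, the top of the range over the alternatives for each).

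The 2 higher genes were Art8, an arginine methyltransferase gene, and Ahcy13, which encodes the hydrolase of S-adenosylhomocysteine, the by-product that inhibits methyltransferases. Art8 rose from 3.37 and 3.26 RPKM to 7.80 and 8.16 RPKM, a fold of 1.06 ± 0.27 (SE; limma, adjusted p = 0.0332). Ahcy13 rose from 31.1 and 35.6 RPKM to 87.5 and 109 RPKM, a fold of 1.53 ± 0.30 (SE; limma, adjusted p = 0.0191). Both kept their calls with the length trend removed (limma, adjusted p = 0.0349 and 0.0253). Over the alternatives their adjusted p ran up to 0.19 and 0.136. The arginine methyltransferase genes thus went both ways in CBP knockdown: Art4 and Art1 were lower and Art8 was higher, while Art3 (-0.78) and Art7 (1.00) were not called (limma, adjusted p = 0.116 and 0.0592).

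**Figure D5:**
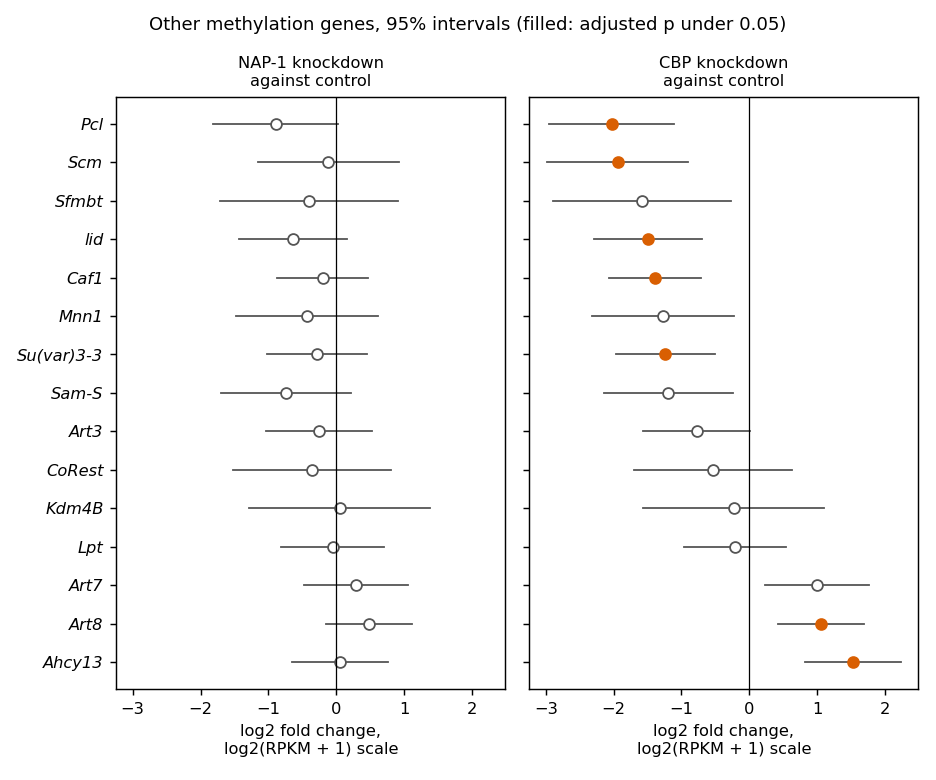
Log2 fold change of the 15 other methylation genes tested (1 line each), on the log2(RPKM + 1) scale (horizontal axis), in both comparisons with control; lines are 95% intervals and filled points have an adjusted p under 0.05. In CBP knockdown 5 genes are filled below 0, from Pcl at -2.03 to Su(var)3-3 at -1.24, and 2 above, Art8 at 1.06 and Ahcy13 at 1.53.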

How the data were processed

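The authors deposited RPKM values per feature in 1 table, which also gives a count of alignments for every sample. Per the submitters' processing notes, the genome build was dm3. Aligner, counting program and settings: not given in the sources used here. Per the labels' protocols, messenger RNA libraries were made with a strand-specific kit. Features are named by a symbol alone or by a RefSeq mRNA and a symbol. The deposited columns may have been cut at a column limit, so genes may be missing or listed in part. Of 16381 features, 11887 were set aside at the start: those under a mean of 1 RPKM, those repeating another feature's values, and names that begin with 3 digits or end in an apostrophe. All features of the methylation and marker genes were read. Those of them that were repeated or under the minimum were then left out of the sums as well. Every listed feature of nej and Nap1 was kept whatever its mean, so the nej sum includes 2 features under 1 RPKM. The 4411 features kept were summed per symbol to 3987 genes.

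Log2(RPKM + 1) values were tested with limma 3.58.1 (R 4.3.3), with 1 model over all 6 samples, a variance trend and Benjamini-Hochberg adjustment over 3987 genes at 0.05. RPKM values are not counts, so no count model was used. The procedure was checked on simulated data. Median transcript lengths came from the BDGP6 annotation, with a value for 3957 genes. Coordinates of that build were not used. Named were the 10 genes, both targets and each called gene of the wider list. Art3, Art7, Sfmbt and Kdm4B, not called, were added after their values were seen. Alternatives were other pseudocounts, minimums, scalings, features, fits and left-out libraries, the replicate block and removal of the length trend. Members and lists were chosen with earlier results of these data known. Sequences were not used here.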

Additional observations from a re-analysis of the deposited data

How the results depend on the processing

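In CBP knockdown, 3 of the 10 genes were called. An unchanged number need not mean the same genes: with 4 samples in the fit, Art1 lost its call and wds gained one. The number was 1 at a gene mean of at least 5 RPKM, where 4 of the 10 were tested, and 0 to 3 with 1 library left out. The wider list gave 7, against 4 at that minimum, 4 with the length trend removed (3 higher and 1 lower) and 0 to 8 with 1 library left out. In NAP-1 against CBP knockdown, 1 of the 10 was called. That number was 0 with a pseudocount of 0.1, a gene mean of at least 5 RPKM, the highest feature of each gene, quantile normalization, 4 samples in the fit, the replicate block or the length trend removed, and 0 to 1 with 1 library left out. There the wider list gave 0, against 1 at a mean of at least 5 RPKM, 2 with median-of-ratios scaling and 0 to 1 with 1 library left out. In NAP-1 knockdown no setting called any of the 10. The causes were not tested. Median-of-ratios scaling and quantile normalization moved the median fold of all genes in CBP knockdown from -0.15 to 0.01 and 0.12.

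Some folds changed sign; of these, nej in CBP knockdown had been called, at -1.26, and the others had not. In NAP-1 knockdown these were Cfp1 with median-of-ratios scaling (0.0452), E(z) and Cfp1 with quantile normalization (0.00303 and 0.16), and E(z), Cfp1, Mes-4 and Hmt4-20 with the length trend removed (0.0597, 0.18, 0.15 and 0.14). In CBP knockdown they were E(z) and Mes-4 with quantile normalization (0.11 and 0.0869) and E(z), Mes-4, Hmt4-20 and nej with the length trend removed (0.31, 0.84, 0.38 and 0.23). In NAP-1 against CBP knockdown they were E(z) and Mes-4 under median-of-ratios scaling (-0.027 and -0.0672), under quantile normalization (-0.11 and -0.18) and after removal of the length trend (-0.25 and -0.69), where Hmt4-20 stood at -0.24. With 1 library left out, NAP-1 knockdown gave E(z) -0.34 to 0.0033, Cfp1 -0.30 to 0.22, Dpy-30L1 -0.57 to 0.34, wds -0.48 to 0.20 and Hmt4-20 -0.63 to 0.00661. CBP knockdown gave E(z) -0.45 to 0.0091. NAP-1 against CBP knockdown gave E(z) -0.18 to 0.28, Utx -0.0367 to 1.28, Mes-4 -0.20 to 0.22 and Hmt4-20 -0.11 to 1.24. Of 680 folds of single genes under the alternatives, 566 kept direction and side of the threshold, 75 lost their call, 4 gained one and 35 changed sign. Most of the 680 belong to genes not called in the main fit, which had no call to lose. Fits with 4 samples, the replicate block or no variance trend leave the fold itself unchanged. The 566 are therefore no measure of how stable the calls were.

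The replicate number as a block left 3 of the 10 genes called in CBP knockdown, 0 in NAP-1 knockdown and 0 in NAP-1 against CBP knockdown, and gave 5 of the wider list in CBP knockdown. Same-numbered samples did not deviate together in every pair of groups: the correlation across genes was 0.24 for control and NAP-1 knockdown, 0.13 for control and CBP knockdown and -0.24 for NAP-1 and CBP knockdown. The numbers were therefore not treated as pairs, and whether same-numbered samples shared a day or batch is not stated in the labels. With a library left out, the lone sample of its group is assumed to vary like the other groups. Planned fits with no minimum, with features summed before the minimum and with repeated features were not run over all genes. Added after the data were seen, they were run for the methylation genes alone and called 3 of the 10 in CBP knockdown in each case. Of the wider list they called 9 of 29, 8 of 16 and 7 of 15 in that order.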
